A study of Homo sapiens with 40 samples.

Results

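Chromosome 4 was described here through its Hi-C compartment signal, a signed score per 100 kb bin. Its members were the bins with a value in all 4 replicate columns and in the columns of each genotype, 1828 of 26496 such bins in the genome, while 84 further bins of chromosome 4 lacked a value. Chromosome 4 was chosen because it held the most sign changes between genotypes, so its compartment values are given as a description and nothing is read from how many of its bins passed a test. The study set control (CT) cells of A549, a long-established line from a human lung adenocarcinoma, against A549 cells in which SETDB1 had been disrupted by CRISPR/Cas9 from the PX458 plasmid (KO). Both genotypes were grown under the same culture conditions with no other treatment named, and whether the KO cells come from a single clone is not given in the sources used here. Hi-C had 2 libraries per genotype and RNA-seq 3, and the ChIP-seq peaks and the topologically associating domains (TADs) came as 1 list per mark and genotype, so a value taken from them carries no replicate error. Nothing in the labels says that replicates came from separate cultures, so p-values measure only the spread between these libraries. All bin, peak and domain positions are on GRCh37 (hg19).

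Hi-C records which stretches of DNA touch each other in the nucleus, and its contacts separate each chromosome into an active A compartment and a repressed B compartment, read from the sign of a score whose orientation must be set for each chromosome or arm. A bins usually hold genes, open chromatin and acetylated histones, and B bins hold heterochromatin. SETDB1 is a methyltransferase that places H3K9me3, a heterochromatin mark. TADs are stretches within which contacts are frequent, and their edges often hold the DNA-binding protein CTCF. H3K27ac and H3K4me3 mark active enhancers and promoters, and H3K27me3 is placed by Polycomb complexes on repressed genes.

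The sign of the score was checked against H3K27ac before any bin was called A (positive) or B (negative). On chromosome 4, H3K27ac peaks covered 3.63% of the length of A bins and 0.139% of B bins in CT. The corresponding values in KO were 4.04% and 0.626%. Active chromatin thus lay on the positive side of the score in both genotypes. The SETDB1 transcript itself stood at 37.5, 39.6 and 38.7 CPM (library-scaled read counts) in the CT libraries and at 23.4, 21.2 and 21.1 CPM in the KO libraries. It was lower in every KO library but was not lost, with a log2 fold change of -0.82 (SE 0.060, edgeR quasi-likelihood adjusted p 1.7e-12). RNA-seq totals ran from 18065062 to 48364919 counts. The 5 epithelial markers KRT8, KRT18, KRT19, EPCAM and CDH1 summed to 2995 to 3272 CPM in CT and 9210 to 9943 CPM in KO. Over all libraries, KRT8 had the highest single mean of them at 4432 CPM, and the lowest was 7.39 CPM. The sums therefore do not show the direction of each marker. Of 10 markers of blood, endothelial, fibroblast and erythroid cells, 9 were found, summing to 3.53 to 3.65 CPM in CT and 8.08 to 9.29 CPM in KO. CD3E and DCN were at 0, and the highest mean of a single gene was 3.47 CPM for COL1A1.

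Chromosome 4 changed sign in 476 of 1828 bins (26.0%). From B to A went 311 bins and from A to B 165, while 806 bins were A in both genotypes and 546 were B in both. A bins made up 53.1% of the chromosome in CT and 61.1% in KO. By the share of bins that changed sign, chromosome 19 followed with 19.1% (80 of 419 bins) and chromosome 13 with 16.4% (153 of 932 bins). By number, chromosome 2 followed with 264 bins. Over all chromosome 4 bins, the median absolute difference between the genotype means was 0.339 score units, against 0.0638 between the CT replicates and 0.0585 between the KO replicates. On the other chromosomes, the median difference between genotypes was 0.144. Limma, fitted to all 26496 bins with adjustment over all of them, gave 595 chromosome 4 bins a higher and 869 a lower signal in KO at an adjusted p under 0.05. Over the genome, 21.6% of bins were higher and 37.3% lower (58.8% in either direction).

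The widest stretch without bins, the centromeric gap at chr4:49000001-52700000 (3.7 Mb), divides the chromosome into a short arm of 477 bins and a long arm of 1351 bins. Differences over 1 score unit were found in 99 bins, of which 89 rose and 10 fell. The rises were mostly on the long arm (78 bins), and 84 of the 89 lay inside 8 runs of bins described below. On the short arm, 74 bins (15.5%) changed sign. On the long arm, 402 bins (29.8%) did. The short arm went from 49.1% to 53.7% A bins and the long arm from 54.6% to 63.7%. The plot of the signal along the chromosome shows replicates that run on top of each other and differences arranged in blocks.

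**Figure D1:**
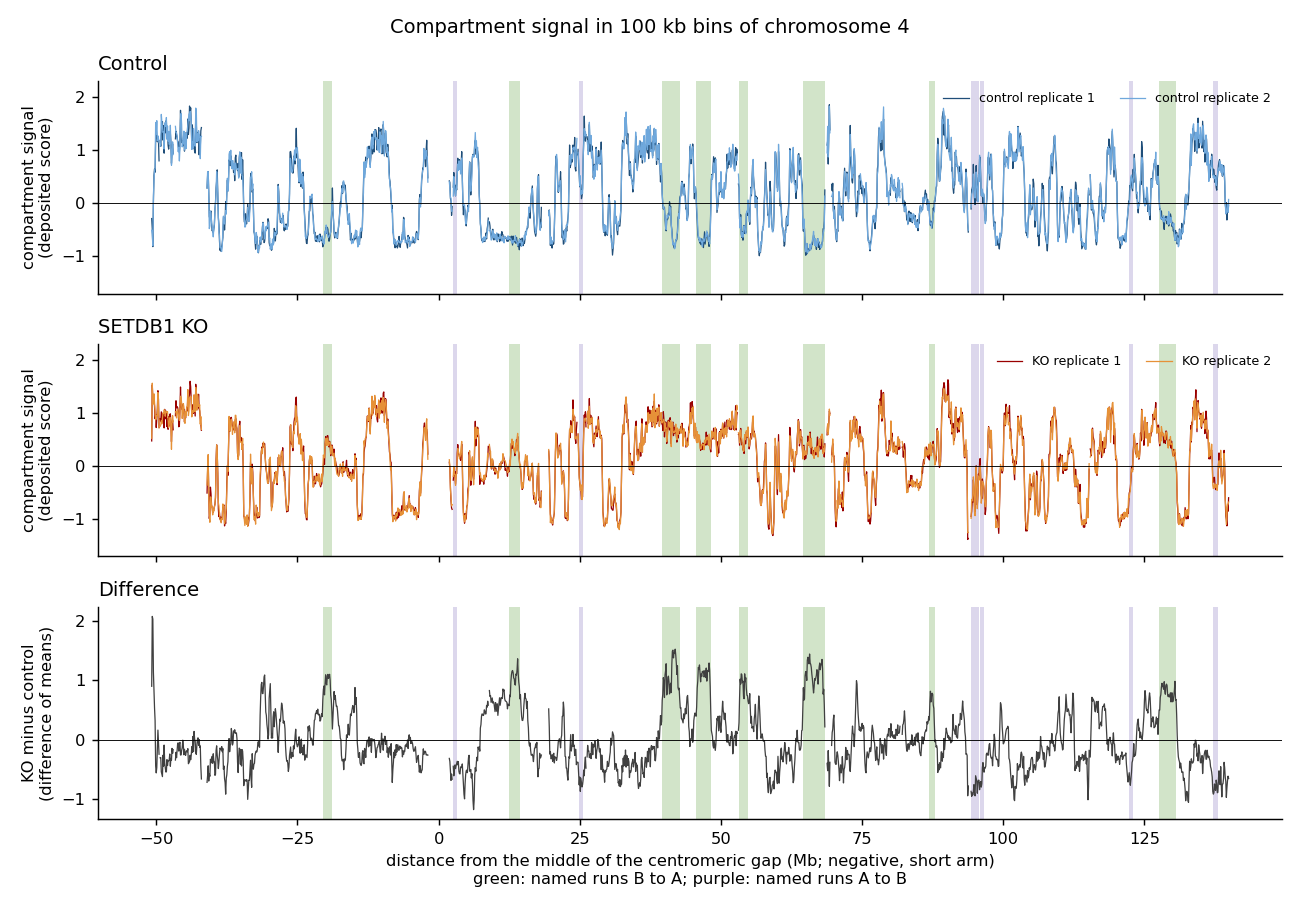
Compartment signal (deposited score, vertical axis) of each 100 kb bin of chromosome 4 against distance from the middle of the centromeric gap (Mb), for the 2 CT replicates, the 2 KO replicates and the difference of the genotype means. Green bands mark the 8 longest runs from B to A and purple bands the 6 named runs from A to B; the 2 lines of a genotype nearly coincide, and the difference is above 0 through the green bands and below 0 through the purple ones.

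Whether an arm had merely been given the opposite sign in KO was examined in 2 ways. In a reoriented arm the signals of CT and KO would correlate negatively across bins, and the signal of KO would correlate negatively with active marks. Across bins, which are neighbours in 1 Hi-C library and not independent replicates, Pearson's r between the genotype means was 0.848 on the short arm and 0.631 on the long arm. Over the 4 pairings of single replicates it ranged from 0.841 to 0.847 and from 0.621 to 0.633. Within a genotype r was 0.987 to 0.992 on either arm. With the KO sign reversed, the share of bins changing sign would be 84.5% on the short arm and 70.2% on the long arm. These are by construction the complements of the shares above and add no further check. The correlation of signal with H3K27ac cover on the short arm was 0.480 in CT and 0.471 in KO, and on the long arm 0.441 and 0.390. With H3K4me3 cover it was 0.522 and 0.486 on the short arm and 0.512 and 0.443 on the long arm. Neither arm had a negative correlation between genotypes or with an active mark.

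Cut into consecutive 10 Mb windows, of which 19 held at least 50 bins, chromosome 4 gave correlations between genotypes from -0.314 to 0.982 with a median of 0.727. On the other chromosomes, 255 such windows had a median of 0.939. The share of windows under 0.5 was 15.8% on chromosome 4 (3 windows) and 2.75% elsewhere (7 windows). Of the windows elsewhere, 1 was negative (-0.131). Because chromosome 4 was chosen on sign changes between genotypes, its lower correlations follow in part from that choice. Over whole chromosomes, r was 0.704 on chromosome 4 and 0.701 on chromosome 19. Among the 19 windows of chromosome 4, the highest r belonged to 40 to 50 Mb, next to the centromere on the short arm. There 4 of 90 bins changed sign. The lowest, and the sole negative value on this chromosome, belonged to 60 to 70 Mb on the long arm. There 38 of 91 bins went from B to A and 5 from A to B, while 46 stayed B and 2 stayed A, so the A share went from 7.69% to 44.0%. In that window the replicates of CT correlated at 0.964 and those of KO at 0.971, so the reordering of its bins was shared by replicates. Its signal correlated with H3K27ac cover at 0.532 in CT and 0.149 in KO. Both values are positive, and the KO value is the lowest of the 19 windows, whose KO range reached 0.650. No window of at least 50 bins had a negative correlation of signal with H3K27ac or with H3K4me3 in either genotype.

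The window from 90 to 100 Mb changed sign most often. In CT it held 38 A and 62 B bins. In KO all 100 bins were A, with 62 changes from B to A and none in the other direction. Its mean signal was -0.089 and -0.091 in the CT replicates and 0.631 and 0.627 in the KO replicates. The SD across its bins went from 0.559 and 0.547 in CT to 0.196 and 0.186 in KO, so the alternation of A and B domains seen in CT gave way to an even positive level. H3K9me3 peaks covered 4.91% of this window in CT and 0.306% in KO. Windows rich in changes from B to A also included 110 to 120 Mb, with 39 of 97 bins, where r between genotypes was 0.241. In the end window of the short arm, 0 to 10 Mb, r was 0.281 with 5 of 87 bins changing sign and 82 bins A in both genotypes.

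**Figure D2:**
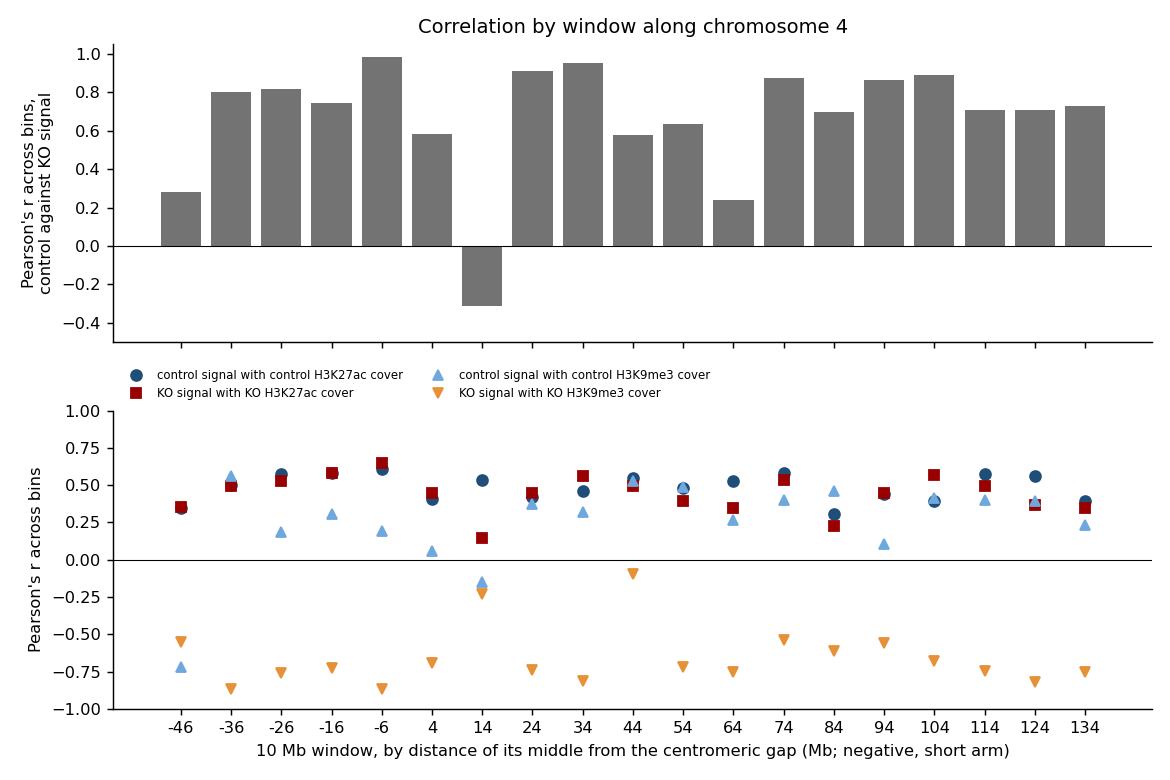
Correlations across the 100 kb bins of each 10 Mb window of chromosome 4 with at least 50 bins, ordered by distance from the centromeric gap: CT against KO signal (bars), and the signal of each genotype against its own H3K27ac and H3K9me3 peak cover (points). The CT to KO correlation is below 0 in 1 window (-0.314), the H3K27ac points are above 0 in all 19 windows, and the KO H3K9me3 points are below 0 in all 19 windows.

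Adjacent bins with the same change of sign formed 109 runs, 45 from B to A and 64 from A to B. Changes from B to A were gathered into long stretches. Their runs had a median of 4 bins and reached 39, and 8 runs of at least 10 bins held 185 bins (18.5 Mb), 59.5% of all changes in that direction. Runs from A to B had a median of 2 bins and reached 14. Of these, 25 were single bins, and 2 runs of at least 10 bins held 24 bins (14.5%). Of the 8 long B to A runs, 7 were on the long arm, which holds 1351 of the 1828 bins.

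The short-arm run, chr4:30400001-32000000 (16 bins), had mean signals of -0.549 and -0.538 in the CT replicates and 0.363 and 0.379 in KO. On the long arm, the run nearest the centromere was chr4:63400001-65200000 (18 bins), with means of -0.713 and -0.708 in CT and 0.310 and 0.331 in KO. This run lay in the window with the negative correlation, and every bin of it was negative in each CT replicate and positive in each KO replicate. The run chr4:90500001-93600000 (31 bins) went from -0.377 and -0.386 to 0.697 and 0.694, the highest KO level of the 8. A short distance on, chr4:96500001-99100000 (26 bins) went from -0.621 and -0.601 to 0.442 and 0.452. These neighbours make up most of the changed bins of the even A stretch between 90 and 100 Mb.

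The run chr4:104100001-105600000 (15 bins) went from -0.425 and -0.427 to 0.467 and 0.504. The longest run, chr4:115300001-119200000 (39 bins, 3.9 Mb), went from -0.732 and -0.716 to 0.343 and 0.352. Its 39 bins had a signal between -0.978 and -0.294 in CT and between 0.122 and 0.641 in KO, so the ranges of single bins did not overlap. The run chr4:137700001-138700000 (10 bins) had the smallest difference of the 8, from -0.275 and -0.292 to 0.320 and 0.319. Towards the end of the long arm, chr4:178500001-181500000 (30 bins) went from -0.350 and -0.342 to 0.430 and 0.452. In each of the 8 runs the replicate means of a genotype differed by at most 0.0377 score units, against genotype differences of 0.603 to 1.08.

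**Figure D3:**
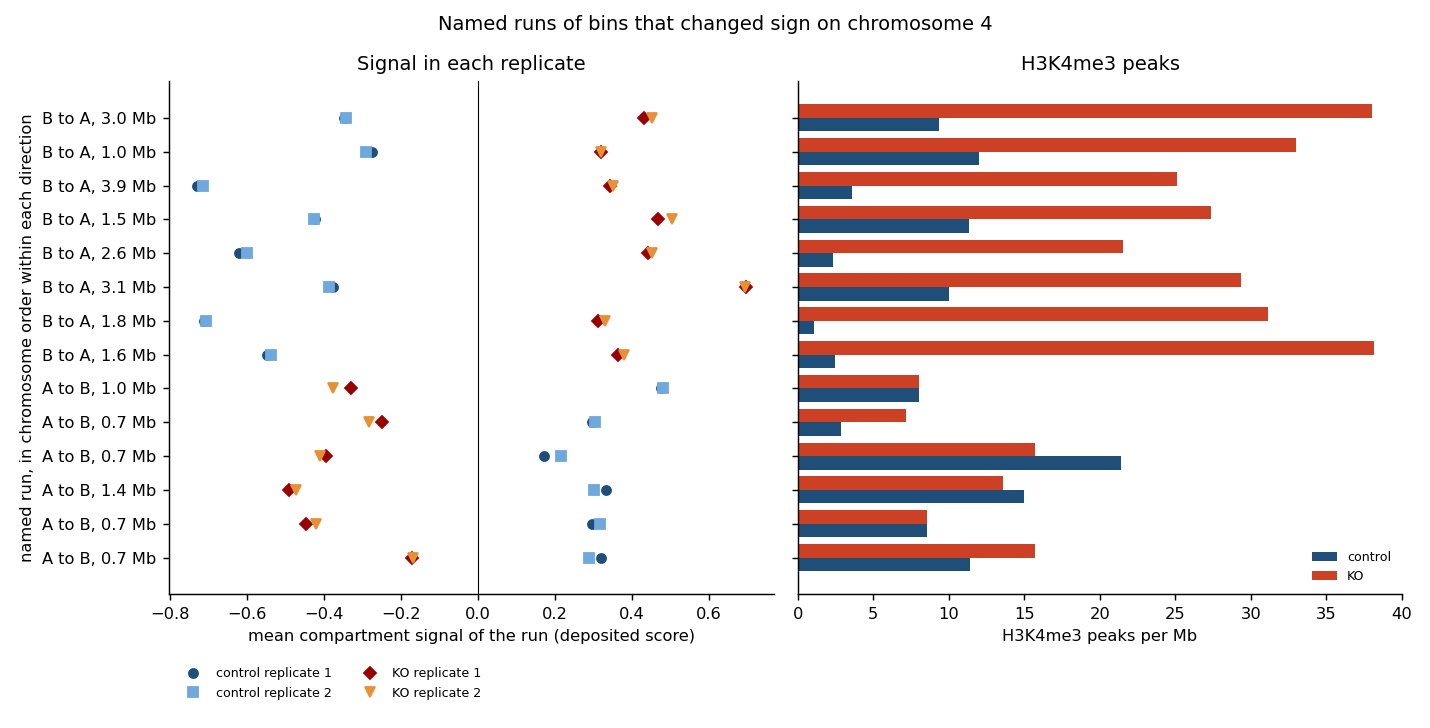
Left, mean compartment signal (deposited score) of each named run in each of the 4 Hi-C replicates; right, H3K4me3 peaks per Mb in the same runs from the CT and KO peak lists. The 8 runs from B to A lie below 0 in CT and above 0 in KO and hold more H3K4me3 peaks in KO, and the 6 runs from A to B lie the other way round, with more H3K4me3 peaks in 2, fewer in 2 and the same number in 2.

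The named runs from A to B were chr4:145200001-146600000 (14 bins), chr4:187900001-188900000 (10 bins) and the 4 of 7 bins that follow them in length. The first went from 0.333 and 0.301 in the CT replicates to -0.492 and -0.473 in KO, and the second from 0.477 and 0.482 to -0.330 and -0.376. A further run, chr4:146800001-147500000, lay just beyond the first and went from 0.171 and 0.216 to -0.396 and -0.412. These values place a stretch around 145 to 148 Mb that was weakly A in CT on the B side in KO. The runs chr4:53400001-54100000, chr4:75700001-76400000 and chr4:173100001-173800000 had CT means of 0.289 to 0.320 and KO means of -0.447 to -0.168.

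The bins that changed most were at the very end of the short arm. The bin chr4:100001-200000 had a signal of -0.480 and -0.578 in CT and 1.53 and 1.56 in KO. Its neighbour chr4:200001-300000 had -0.816 and -0.799 in CT and 1.28 and 1.16 in KO. H3K9me3 peaks covered 85.2% and 86.7% of these bins in CT, and no H3K9me3 peak was listed there in KO. H3K4me3 cover was 2.70% in CT and 8.04% in KO in the first of them, and 0% and 3.80% in the second. They stand apart from the long B to A runs, where CT cover by H3K9me3 was 0.664% to 11.2%. The third largest rise, chr4:92700001-92800000, lay inside a long run and went from -0.821 and -0.814 to 0.760 and 0.647. The largest fall was that of chr4:57000001-57100000, from 0.888 and 0.867 to -0.249 and -0.351, and the next were chr4:183600001-183700000 and chr4:183100001-183200000. H3K9me3 cover of these 3 bins had no common direction, with 6.12% in CT and 0% in KO in the first, 10.2% and 15.6% in the second and 7.13% and 67.8% in the third. The signal of the third went from 0.165 and 0.168 to -0.889 and -0.835.

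H3K9me3 in chromosome 4 was redistributed between compartments. In bins that were B in both genotypes, H3K9me3 peaks covered 3.73% of the length in CT and 40.3% in KO. In bins that were A in both, cover went from 8.92% to 0.353%. Bins that went from B to A had 4.93% in CT and 0.718% in KO, and bins that went from A to B 8.96% and 3.48%. Bins with more than 25% H3K9me3 cover in KO numbered 286 of the 546 that stayed B, 7 of the 165 that went from A to B and 0 of the 311 that went from B to A. Pearson's r of signal with H3K9me3 cover was 0.181 on the short arm and 0.269 on the long arm in CT, and -0.802 and -0.672 in KO. Over the 19 windows it was negative in all in KO and positive in 17 in CT. On the other chromosomes, bins that stayed B went from 15.9% to 57.1% cover and bins that went from B to A from 20.6% to 2.98%. Bins there that were A in both went from 9.62% to 1.01%, and bins from A to B had 12.9% in CT and 12.8% in KO.

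H3K9me3 peaks moved in opposite directions by compartment. They went from 916 to 2704 in bins that stayed B and from 2426 to 118 in bins that were A in both. Over the whole chromosome their number went from 4535 to 3145, while their summed length went from 12.4 to 23.1 Mb and their median width from 1990 to 3513 bases. KO had 9 peaks of at least 100 kb and CT had none. The 3 widest, chr4:46880878-47024915, chr4:43292021-43428492 and chr4:47126085-47243734, all lay in the window beside the centromere that had the highest correlation between genotypes. Cover in that 40 to 50 Mb window went from 4.47% to 44.7%. An overlap of 1 bp or more with the other genotype's list was found for 13.3% of CT peaks and 18.4% of KO peaks.

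The ratio of active-mark cover between genotypes was highest in bins that went from B to A. H3K27ac cover in these bins went from 0.180% to 0.970% (5.40-fold) and H3K4me3 cover from 0.659% to 2.90% (4.40-fold). The share of these bins with an H3K4me3 peak went from 44.7% to 94.2%, and with an H3K27ac peak from 12.5% to 49.2%. In bins that were A in both, the cover ratios were 1.26 for H3K27ac and 1.16 for H3K4me3. In bins that stayed B they were 2.76 and 2.42, from low CT levels of 0.116% and 0.475%. Bins that went from A to B had higher, not lower, active-mark cover in KO, with H3K27ac at 1.16% and 1.64% and H3K4me3 at 2.18% and 2.54%. On the other chromosomes, the H3K27ac and H3K4me3 ratios in bins from B to A were 2.65 and 2.52, and in bins from A to B 0.933 and 0.940. These differences between chromosome 4 and the rest rest on 1 peak list per genotype and were not tested.

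**Figure D4:**
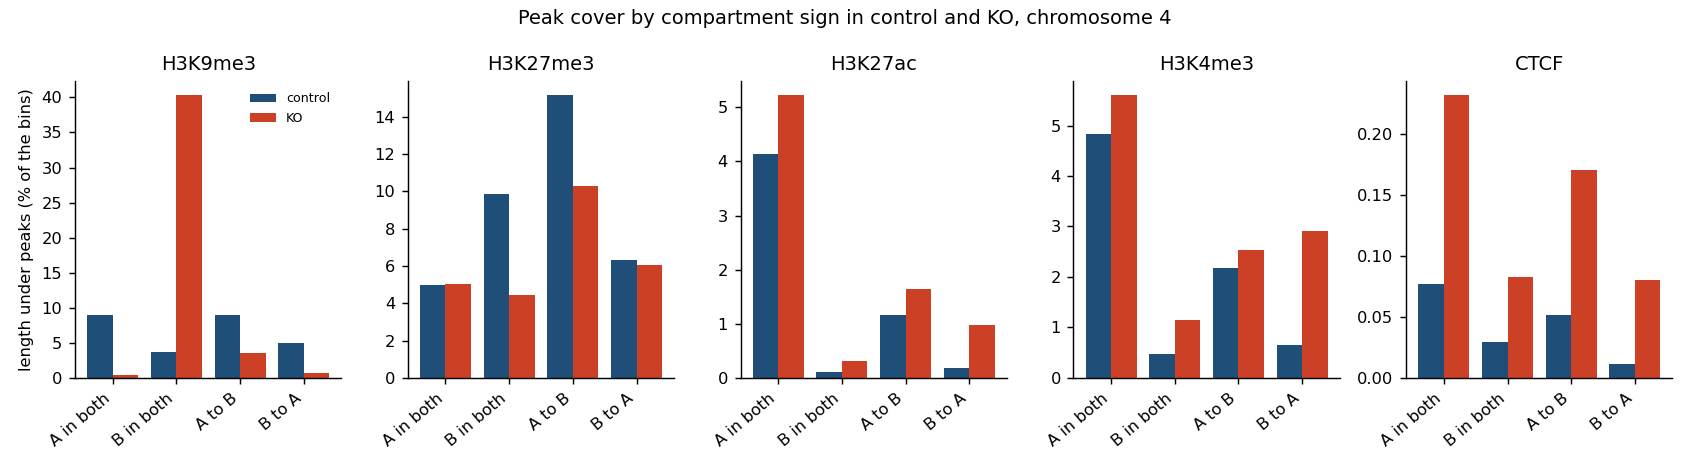
Share of bin length under peaks (percent, each panel with its own axis from 0) for 5 marks in chromosome 4 bins grouped by compartment sign, from the CT and KO peak lists. H3K9me3 cover is 3.73% in CT and 40.3% in KO in bins that stayed B and lower in KO in the other 3 groups, and H3K4me3 cover in bins from B to A is 0.659% in CT and 2.90% in KO.

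The 8 long B to A runs showed the same marks one by one. H3K4me3 peaks in them went from 114 to 550 and H3K27ac peaks from 20 to 125, and cover by each was higher in KO in all 8 runs. CTCF peaks went from 5 to 65, with higher cover in all 8. H3K9me3 peaks went from 284 to 22, with lower cover in all 8. H3K27me3 had no common direction: its peaks went from 361 to 284, with higher cover in 6 runs and lower cover in 2. In the run chr4:90500001-93600000, H3K27me3 cover went from 19.0% to 4.62%, and in chr4:30400001-32000000 it went from 0.851% to 7.18%. The longest run, chr4:115300001-119200000, held 14 H3K4me3 peaks in CT and 98 in KO, and 63 and 69 H3K27me3 peaks. In chr4:63400001-65200000, H3K9me3 peaks went from 82 to 1 and H3K4me3 peaks from 2 to 56.

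Chromosome 4 had more active-mark peaks in KO relative to CT than the rest of the genome did. H3K27ac peaks numbered 1921 in CT and 2683 in KO, a ratio of 1.40 against 1.04 on the other chromosomes. H3K4me3 peaks numbered 2919 and 4541, a ratio of 1.56 against 1.20. CTCF peaks numbered 375 and 992, a ratio of 2.65 against 1.42. H3K27me3 peaks numbered 4560 and 2847, a ratio of 0.624 against 0.749. These ratios rest on 1 list per genotype, and their part in the mark changes of the sign groups was not tested. H3K27me3 cover was 4.97% and 5.03% in bins that were A in both, 9.88% and 4.43% in bins that stayed B, 15.2% and 10.3% in bins from A to B and 6.34% and 6.08% in bins from B to A.

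TADs kept most of their edges on chromosome 4. CT had 358 domains and KO 386, each with a median length of 340 kb. Of 420 distinct CT boundaries, 95.2% had a KO boundary within 20 kb, and of 452 KO boundaries 88.1% had a CT boundary as near. KO boundaries without a CT partner were commoner in bins that were B in CT: 96.1% of KO boundaries were shared in bins that were A in both, 90.9% in bins from A to B, 71.8% in bins that stayed B and 69.2% in bins from B to A. Boundaries per Mb went from 1.25 to 1.67 in bins from B to A and from 1.06 to 1.43 in bins that stayed B. They were 3.20 and 3.16 in bins that were A in both, and 3.27 and 3.33 in bins from A to B. In boundary density, bins from B to A were close to bins that stayed B in both genotypes.

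Some ends of the long B to A runs lay near TAD edges and others did not. Of their 16 ends, 8 had a CT boundary and 9 a KO boundary within 100 kb, while 40.8% and 43.7% of all bin starts on the chromosome did. Those bin starts include A bins, where boundaries were denser, so they are not matched to the runs. Whether run ends lay nearer to boundaries than such a matched set was not tested. The longest run ended on a boundary and began 20 kb from one in both genotypes. In chr4:63400001-65200000, CT had no boundary inside the run and the nearest one to its left end lay 2060 kb away. KO had 2 boundaries inside it and one 200 kb from that end. A CTCF peak lay within 1 bin of 20 kb of 25.7% of CT boundaries and 52.7% of KO boundaries, beside the 2.65-fold number of CTCF peaks on the chromosome.

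Expression was not used to choose chromosome 4 and was tested over all 17767 genes with edgeR's quasi-likelihood test. Genes were placed on the chromosome and in order along its arms by name. An annotation of the build of the bins was not used here, so no gene was assigned to a bin or run. Of 573 tested chromosome 4 genes, 210 were higher and 179 lower in KO at an adjusted p under 0.05, against 32.8% higher and 30.0% lower of all tested genes. This is 36.6% and 31.2% of the chromosome's genes, close to the background. At least 2-fold changes were found for 83 higher and 22 lower genes, or 14.5% and 3.84%, beside 9.86% and 4.85% of all genes. For 397 genes (69.3%, against 65.8% of all tested genes) every library of one genotype lay above every library of the other in CPM. Of the 184 short-arm genes, 79 were higher and 50 lower, with a median log2 fold change of 0.081. Of the 389 long-arm genes, 131 were higher and 129 lower, with a median of 0.018, which became -0.017 under upper quartile scaling. The median over all tested genes was 0.0038. Bulk RNA cannot tell apart fewer cells that express a gene and less RNA per cell.

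Most broad stretches of genes had a median change near 0. In 23 consecutive blocks, 22 of 25 tested genes and the last of 23, the median log2 fold change lay between -0.22 and 0.43, and 21 blocks were within 0.25 of 0. An exception was the block at the end of the short arm, ZNF595 to CTBP1, with 17 genes higher, 0 lower and a median of 0.42. Another was the block TMEM154 to ETFDH on the long arm, with 14 higher, 5 lower and a median of 0.43. The lowest medians lay just inside that limit, on the long arm. The block RUFY3 to USO1 had 4 genes higher, 15 lower and a median of -0.21. The block ENOPH1 to KLHL8 had 4 higher, 12 lower and a median of -0.22. Of the 23 medians, 13 were above 0. The short-arm block begins with the genes nearest the chromosome end, where the bins with the largest rise in signal lay. Over the whole window from 0 to 10 Mb, however, the mean signal was 1.12 and 1.16 in the CT replicates and 0.999 and 0.996 in KO. No gene was assigned to a bin, and a link between this block and those bins was not tested. The zinc finger genes of the block encode repressors of transposable elements and genes. ZNF718 stood at 1.91, 1.38 and 1.65 CPM in CT and 5.67, 4.59 and 4.86 CPM in KO (log2 fold change 1.57, SE 0.15, edgeR adjusted p 4.9e-10). ZNF721 rose by 0.33 on the log2 scale, while ZNF595 (-0.12) and ZNF141 (0.11) did not pass the test. These paralogs can share reads, so their separate values are uncertain.

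**Figure D5:**
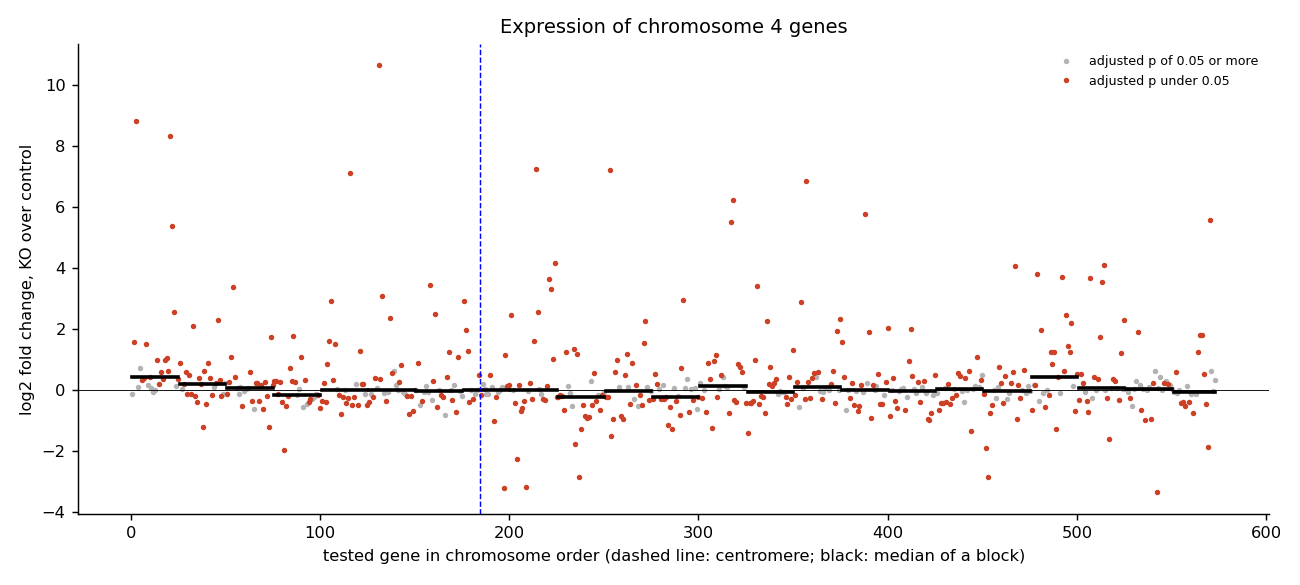
Log2 fold change (KO over CT, edgeR) of the 573 tested chromosome 4 genes in chromosome order, with genes at an adjusted p under 0.05 in red, the median of each block of consecutive genes as a black line and the centromere as a dashed line. Single genes spread widely on both arms, while 21 of 23 block medians are within 0.25 of 0.

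Of the tested chromosome 4 genes, 3 had no count in any CT library; they were picked out after their values were seen, although PCDH7 was also on a list. PCDH7, a protocadherin of cell adhesion on the short arm, had 0 counts in all 3 CT libraries and stood at 6.64, 7.81 and 6.82 CPM in KO (690 counts). Against a floor of 3 counts over the CT libraries together it was at least 167-fold higher. The zinc finger pseudogene ZNF876P had 192 counts in KO and was at least 49.4-fold higher by the same floor. ADGRL3, an adhesion receptor called latrophilin on the long arm, had 64 KO counts and was at least 16.9-fold higher. Each KO library had reads of all 3 genes. Without a CT count, these genes passed the expression filter through KO alone. That the genotypes did not overlap follows from how they were picked, and their direction is not read as a result.

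The largest rises among well-measured genes included 7 short-arm genes of 12, where the short arm holds 184 of the 573 tested genes. ARAP2, a regulator of small GTPases at the cell edge, went from 1.70, 2.43 and 2.54 CPM in CT to 20.4, 17.6 and 19.0 CPM in KO (log2 fold change 3.08, SE 0.11, edgeR adjusted p 5.1e-19). FGFBP1, a secreted carrier of fibroblast growth factors, went from 1.83, 1.71 and 1.75 CPM to 13.5, 13.3 and 13.5 CPM (2.93, SE 0.11). SH3BP2, a signalling adaptor, went from 8.67, 10.5 and 9.51 CPM to 46.9, 47.5 and 46.6 CPM (2.31, SE 0.068). In these genes all KO libraries lay several-fold above all CT libraries. A lack of overlap between genotypes was itself a condition of the naming rule, and it held for 65.8% of all tested genes. FGFR3, a fibroblast growth factor receptor, rose by 2.09 on the log2 scale, as did on the long arm PDE5A, which breaks down cyclic GMP, by 2.04. Rises of 1.61 to 2.21 were found for GASK1B, the ubiquitin ligase TRIM2, FAM149A, the secreted protease HTRA3, the calcium-binding protein S100P, the NAD-consuming enzyme CD38 and the secreted factor IGFBP7. CD38 went from 13.8 ± 1.58 to 42.1 ± 0.476 CPM (SD, n = 3; edgeR adjusted p 1.1e-17).

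Among genes with a mean of at least 5 CPM and the other limits of the naming rule, the 12 largest falls were all on the long arm, which holds 389 of the 573 tested genes. CXCL5, a chemokine that draws neutrophils, went from 121, 99.6 and 107 CPM in CT to 18.0, 14.7 and 13.4 CPM in KO (log2 fold change -2.84, SE 0.098, edgeR adjusted p 3.4e-10). TRIML2 followed, from 53.5, 50.5 and 52.5 to 15.6, 14.5 and 12.4 CPM (-1.87, SE 0.066). PALLD, an actin-bundling protein, went from 166, 150 and 161 to 54.3, 52.5 and 50.6 CPM (-1.60, SE 0.049). The lowest CT library lay above the highest KO library for each of them, as the naming rule required. The nuclear pore gene NUP54 fell by 1.49 on the log2 scale, and SCARB2, a lysosomal membrane protein encoded beside it in chromosome order, fell by 0.95. ABCG2, a drug efflux transporter, went from 169 ± 2.73 to 72.0 ± 0.674 CPM (SD, n = 3; edgeR adjusted p 1.0e-19). TSPAN5 fell by 1.41. LINC02615, WDR17, DCLK2, the DNA glycosylase NEIL3 and PGRMC2 fell by 0.93 to 0.99.

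The promoters of 2 named genes, picked by unlike rules, are shown. PCDH7 had no counts in CT, and CXCL5 had the largest fall among genes with a mean of at least 5 CPM. Each line gives the 250 bases before the gene's start on chromosome 4, 5′ to 3′ on the gene's own strand, from RefSeq (GRCh38.p14).
PCDH7: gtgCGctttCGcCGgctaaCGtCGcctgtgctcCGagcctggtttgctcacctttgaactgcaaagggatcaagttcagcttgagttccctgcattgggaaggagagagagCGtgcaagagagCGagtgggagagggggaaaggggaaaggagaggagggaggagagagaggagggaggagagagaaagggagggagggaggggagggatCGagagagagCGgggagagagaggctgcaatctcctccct
CXCL5: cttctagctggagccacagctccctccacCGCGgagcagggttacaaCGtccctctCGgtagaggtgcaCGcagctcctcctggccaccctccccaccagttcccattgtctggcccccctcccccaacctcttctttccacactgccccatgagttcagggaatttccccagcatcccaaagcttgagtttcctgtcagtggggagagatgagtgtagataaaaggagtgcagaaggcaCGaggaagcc
Capitals mark CG pairs, the sites of DNA methylation, of which PCDH7 has 10 and CXCL5 has 6, beside a median of 11 over the 35116 promoters of the table. Neither window held a TATA box (TATAAA) or a GC box (GGGCGG) on either strand, which 10.7% and 42.6% of promoters hold. The search covers these letters in this window only.

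The CXC chemokine cluster of the long arm moved in different directions. Of its 13 genes, 6 were tested, 2 were called higher and 4 lower in KO, with a median log2 fold change of -0.87. Of all tested genes, 32.8% were higher and 30.0% lower. Beside CXCL5, CXCL8 (-1.77), CXCL3 (-1.27) and CXCL2 (-0.48) fell. CXCL1, another neutrophil chemokine, rose by 1.20, from 2.35 ± 0.393 to 5.35 ± 0.554 CPM (SD, n = 3; edgeR adjusted p 1.6e-08). CXCL11, an interferon-induced chemokine that draws T cells, was the other gene called higher. It had 1 count over the CT libraries and 2.84, 2.94 and 2.45 CPM in KO. It thus passed the expression filter through KO alone, and its direction is not read as a result, although the count and median above include it. Of the 7 interferon-induced genes on the list, 5 were tested, CXCL11 among them. HERC6 (1.17) rose, HERC5 (-0.22) and DDX60L (-0.25) fell, and DDX60 (0.00) did not pass. HERC5 did not pass in DESeq2, without an expression filter, without CT replicate 1 or without KO replicate 2. TLR3, a sensor of double-stranded RNA, went from 1.45 ± 0.255 to 5.05 ± 0.251 CPM (SD, n = 3; edgeR adjusted p 2.4e-11), while TLR1, TLR6 and TLR10 did not pass the test.

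Gene clusters tied to secretion and detoxification were tested only in part, since most listed members did not pass the expression filter. The 3 fibrinogen chains, which form the clotting protein, rose in KO: FGA by 0.87, FGB by 1.24 and FGG by 1.26 on the log2 scale. FGA went from 47.2, 40.4 and 45.4 CPM in CT to 80.3, 79.4 and 83.9 CPM in KO. The other 4 genes of that list, ALB, AFP, AFM and GC, did not pass the expression filter. Of 9 UGT2 genes, whose enzymes attach glucuronic acid to steroids and drugs, 4 were tested, with log2 fold changes of 1.01 to 4.15, from means of at most 0.470 CPM in CT to at most 1.32 CPM in KO. These near-identical paralogs can share reads, and since their CT levels were so low that some passed the filter through KO alone, their direction is not read as a result. Of 7 alcohol dehydrogenases, 3 were tested. ADH5 (-0.36), the member found in most tissues, fell. ADH1C (3.40) had means of 0.121 CPM in CT and 1.38 CPM in KO, and ADH6 (0.99) 0.425 and 0.833 CPM. Their CT levels were as low as those of the UGT2 genes, so their direction is not read as a result either. PDGFRA, a growth factor receptor gene near the centromere, was the sole tested member of its list of 7. Its log2 fold change was -3.19, from 1.30 ± 0.116 to 0.128 ± 0.0379 CPM (SD, n = 3). With so low a KO level it passed the filter through CT alone, so this direction is not read as a result.

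Listed genes of cell division on chromosome 4 differed by small amounts. Of 8 listed and tested, 7 fell and none rose, beside 30.0% lower and 32.8% higher of all tested genes, with a median log2 fold change of -0.38 beside 0.0038 over all genes. MAD2L1, a spindle checkpoint protein, went from 76.7, 71.6 and 80.4 CPM in CT to 43.6, 41.9 and 42.4 CPM in KO (-0.84, SE 0.052, edgeR adjusted p 4.0e-14). CCNA2, the cyclin of S phase, fell by 0.57, the condensin subunit NCAPG by 0.42, and CENPU, PLK4 and CENPE by 0.30 to 0.38. TACC3 (-0.13) passed at an adjusted p of 0.040 in edgeR and did not pass with library size scaling, without an expression filter, in DESeq2, or without CT replicate 2, CT replicate 3, KO replicate 1 or KO replicate 3, and CENPC (-0.12) did not pass. Of 11 chromatin genes, 8 fell and 1 rose, beside the same 30.0% and 32.8% over all tested genes, with a median of -0.17. H2AZ1, the histone variant H2A.Z, went from 251, 235 and 255 to 147, 141 and 150 CPM (-0.76, SE 0.043, edgeR adjusted p 9.2e-15). SMARCAD1, a remodeller of heterochromatin, fell by 0.39, and NSD2, which methylates H3K36, by 0.38. HMGB2, RBPJ, SETD7, TET2 and SMARCA5 fell by 0.12 to 0.25. NELFA rose by 0.20. The call of NELFA was lost in DESeq2 and without KO replicate 2, and those of TET2 and SMARCA5 in DESeq2, with library size scaling, without an expression filter and without KO replicate 2 or 3. The call of TET2 was also lost without CT replicate 2 or 3, and that of SMARCA5 without CT replicate 1. FAT1, an atypical cadherin at the end of the long arm, fell by 0.45, from 634 ± 43.1 to 464 ± 21.1 CPM (SD, n = 3; edgeR adjusted p 6.4e-09). FAT4 (0.03) did not pass.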

How the data were processed

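RNA-seq used stranded total RNA libraries, ChIP-seq chromatin cut by MNase (histone marks) or sonication (CTCF), and Hi-C in situ ligation after DpnII, per the labels. The submitters' processing notes name STAR 2.6.1c, Bowtie2 2.2.3, SAMtools 1.5, Picard, MACS2, edgeR 3.30.0 and build hg19, without roles. The authors deposited whole-number counts per gene, whose counter and strand setting are not given in the sources used here. The deposited compartment table holds a signed score per 100 kb bin and replicate, whose method and orientation are not given. The deposited peak and TAD lists hold positions only, and whether libraries were pooled for them is not given. No per-sample column was left unmapped (0 columns).

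The chromosome, the gene lists and the naming rules were chosen with earlier results of these data known. Signs were taken from the mean of the 2 replicate columns. Peak cover is the merged peak length within bins. Bins were tested with limma 3.58.1 over all 26496 bins, with no term but genotype. Counts were tested with the robust quasi-likelihood F-test of edgeR 4.0.16 in R 4.3.3, after filterByExpr and TMM scaling, with Benjamini-Hochberg adjustment at 0.05; CPM used TMM-scaled library sizes. A pair of libraries of 1 genotype never agreed within sampling noise (chi-square per degree of freedom 1.67 to 6.96). Of 62486 gene IDs, 39166 were placed on a chromosome and 1654 on chromosome 4 through a RefSeq table on GRCh38.p14, used for names and order only; 8 of these, between CWH43 and DCUN1D4, were put on neither arm. Named runs had at least 10 bins, or were the 4 longest with ties kept. Named genes were the 12 largest changes each way with a mean of at least 5 CPM, at least 10 counts in the lower genotype and no overlap (265 genes met this), members of the lists with an adjusted p under 0.05 and a mean of at least 1 CPM, and SETDB1; list members below that level (ADH1C, ADH6, PDGFRA, the UGT2 genes) were picked for the text after their values were seen. Both fits were tested on simulated data. Python 3.11.15, numpy 2.4.6 and pandas 2.3.3 were used. Alternatives were DESeq2 1.42.0, limma voom, other scalings, no expression filter, other bin, peak and boundary rules, a replicate block and leaving out each replicate.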

Additional observations from a re-analysis of the deposited data

How the results depend on the processing

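Of 902 alternative values, 838 kept their direction and their side of the threshold or stayed within the spread allowed. Many of these values are fits of the named genes, which were named for passing the test in the same data. Their keeping the call was partly set by that choice, and the total says little about the compartment, mark and boundary results. Counts of bins and genes moved by less than 1.5 times, except that asking for an absolute signal above its 10th percentile in both genotypes, which removes switching bins by construction, left 93 changes from A to B. Leaving out 1 Hi-C replicate gave 161 to 173 changes from A to B and 304 to 319 from B to A, 542 to 600 higher and 783 to 890 lower bins, and correlations between genotypes of 0.843 to 0.848 on the short and 0.624 to 0.634 on the long arm. Spearman's rho on the short arm was 0.821, and without bins within 5 Mb of the gap and the ends r was 0.840 and 0.646. Leaving out 1 RNA library gave 194 to 214 higher and 155 to 180 lower genes.

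With the wider 50% of peaks, log2 ratios of H3K9me3 cover, KO over CT, were -5.90 (A in both), 3.92 (B in both), -2.17 (A to B) and -4.97 (B to A), against -4.66, 3.43, -1.36 and -2.78 with all peaks. As bins with at least 1 peak they were -3.34, 0.33 and -2.40 for A in both, B in both and B to A; bins that stayed B with a peak already made up 67.2% in CT, against 84.2% in KO. With bins of the same sign in both replicates they were 3.57 (B in both), -1.96 (A to B) and -3.10 (B to A). H3K27me3 in bins from B to A reversed, from -0.06 to 0.0038 with wider peaks and 0.19 as bins with a peak, and was -0.27 in bins from A to B by the latter. H3K4me3 in bins from B to A was then 1.08. A reciprocal overlap of 50% gave CT and KO peaks with a partner of 3.07% and 4.42% (H3K9me3), 23.4% and 37.4% (H3K27me3), 65.9% and 47.1% (H3K27ac) and 75.2% and 48.3% (H3K4me3). Shared boundaries were 70.7% and 65.7% in the same 20 kb bin and 97.9% and 91.2% within 2 bins. The short-arm gene median was 0.046 with upper quartile scaling, 0.11 with library size only, 0.11 without the expression filter and 0.073 to 0.12 with a library left out. The long-arm median was -0.017, a reversal, with upper quartile scaling, 0.074 without the filter and 0.0013 to 0.050 with a library left out. The cause of these shifts was not tested. No named gene reversed under any alternative run.

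Replicate numbers did not pair the samples: deviations of same-numbered libraries correlated at 0.11, 0.064 and 0.047 in RNA-seq and at -0.0018 in Hi-C. A replicate block gave 219 higher and 186 lower genes and 605 higher and 900 lower bins. Peak and TAD lists allow no replicate check, and 2 Hi-C libraries per genotype limit the precision of bin values.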
